A study of Homo sapiens with 12 samples.

Results

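NLR proteins and inflammasome genes were followed across 2 leukaemia lines without and with decitabine. The 10 genes were listed by name as members of this family and pathway, and the set was chosen by measured values in one respect: NLRP2 had been seen to be strongly lower in the resistant line, so the comparison of the untreated lines had a part in the choice. Each gene was read from the brightest array row annotated to it alone. That gave values for 8 of the 10 genes (NLRP2, NLRP3, NLRP12, NLRX1, NOD1, NOD2, PYCARD and CASP1), out of 18417 genes measured in all. NLRP1 was annotated only on a row that it shares with another gene, and NLRP7 on no named row, so neither was analysed here. Each of the 8 genes had 1 such row.

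Expression was measured on Affymetrix arrays in 4 groups of 3 arrays. These were KA with decitabine, untreated KA, KS with decitabine and untreated KS. KS stands for K562, a cell line established from chronic myeloid leukaemia. KA stands for K562/ADR, a subline of it that resists adriamycin (doxorubicin) and is kept in 50 nM of that drug. Decitabine, a deoxycytidine analogue that traps DNA methyltransferases on DNA, was given at 5 nM for 72 hours. Each line is a single cell line, and line and adriamycin in the medium differ together, so the lines cannot stand for resistance in general and the contributions of the line and the drug cannot be told apart. What the untreated cells were given is not in the labels, nor whether the arrays of a group hold separate cultures. The p-values therefore reflect array-to-array spread, which may be technical.

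NLR proteins are cytosolic receptors built around a nucleotide-binding domain and leucine-rich repeats. Some of them, among them NLRP3, assemble with the adaptor ASC (encoded by PYCARD) into inflammasomes that activate caspase-1 (CASP1), which matures interleukin-1 beta and interleukin-18 and cuts gasdermin D. NOD1 and NOD2 sense fragments of bacterial cell wall and signal through the kinase RIPK2 to NF-kappaB. Inflammasomes are best known from monocytes and macrophages, whereas K562 is an erythroid-like leukaemia line.

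Values are log2 intensities. Background was set at 3.39, the largest of the arrays' lower quartiles, and a group mean at or under it was not shown to exceed background. All 8 measured K562 and erythroid markers lay above that level in every group, with array means of 9.10 to 9.36 over the list. Passing this level does not by itself bear out the label of the lines, since 15344 of 18417 genes had a mean over arrays above it. Of 5 epithelial markers, 4 passed it in every group too, with array means of 7.85 to 8.15. ABCB1, the efflux pump gene of KA, averaged 11.36 in treated KA and 11.22 in untreated KA, against 3.46 in treated KS and 3.39 in untreated KS. Arrays of a group correlated at 0.99 to 0.995 over all rows. Among the 12 arrays, untreated KS replicate 3 had the lowest array weight, 0.424, and differed from its group. For example, LYZ, a lysozyme gene that decitabine raised in KS, read 9.57 on it and 7.77 and 7.86 on the other untreated KS arrays. For NLRP2, CASP1 and the counts of monocyte and erythroid markers called with decitabine, results that change without this array are given both ways. The named pathway genes are given from all arrays only.

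Promoter sequences are shown for 4 members because decitabine traps the enzymes that methylate DNA. In human DNA they act mainly at a cytosine that precedes a guanine, the CG dinucleotide. The 4 genes differ in how many CG they carry and in how they read with the drug. Whether the CG count and the reading with the drug go together was not tested. The sequences come from RefSeq on GRCh38.p14 and have every CG in capitals. They run from 250 bases before to 50 after the gene's start in the gene's direction. NLRP2 has its window at chr19:54965034-54965333 on the plus strand, NOD1 at chr7:30478735-30479034 on the minus strand, NLRX1 at chr11:119168084-119168383 on the plus strand and PYCARD at chr16:31202711-31203010 on the minus strand.
NLRP2: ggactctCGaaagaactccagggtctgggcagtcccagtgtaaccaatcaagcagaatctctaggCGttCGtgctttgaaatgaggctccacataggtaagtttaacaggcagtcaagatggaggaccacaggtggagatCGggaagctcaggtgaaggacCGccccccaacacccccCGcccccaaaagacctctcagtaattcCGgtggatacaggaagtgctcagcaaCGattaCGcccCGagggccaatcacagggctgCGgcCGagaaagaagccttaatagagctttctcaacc
NOD1: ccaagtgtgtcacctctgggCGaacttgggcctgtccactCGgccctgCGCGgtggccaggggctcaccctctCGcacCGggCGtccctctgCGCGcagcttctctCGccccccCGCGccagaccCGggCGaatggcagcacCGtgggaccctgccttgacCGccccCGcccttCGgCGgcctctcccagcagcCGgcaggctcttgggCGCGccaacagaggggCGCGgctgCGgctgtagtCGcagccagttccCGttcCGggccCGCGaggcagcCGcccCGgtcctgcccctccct
NLRX1: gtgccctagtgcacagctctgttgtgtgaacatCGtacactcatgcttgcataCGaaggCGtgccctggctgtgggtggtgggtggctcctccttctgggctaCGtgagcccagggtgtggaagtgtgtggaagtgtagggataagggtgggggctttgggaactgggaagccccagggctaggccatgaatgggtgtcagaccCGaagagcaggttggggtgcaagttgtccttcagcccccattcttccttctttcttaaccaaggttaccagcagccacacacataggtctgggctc
PYCARD: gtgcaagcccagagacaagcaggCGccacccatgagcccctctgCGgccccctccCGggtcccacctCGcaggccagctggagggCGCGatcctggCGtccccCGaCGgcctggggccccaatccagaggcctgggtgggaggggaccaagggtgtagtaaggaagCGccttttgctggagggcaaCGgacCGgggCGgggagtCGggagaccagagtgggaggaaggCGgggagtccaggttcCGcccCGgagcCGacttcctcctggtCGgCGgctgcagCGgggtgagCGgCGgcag

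The motif searched was CG, which reads the same on both strands and cannot overlap itself. NOD1 held 32 of them in its 300 bases, PYCARD 23, NLRP2 12 and NLRX1 5. Among 35116 RefSeq promoter windows of this length the median was 14, and 18.9% held at least as many as NOD1, 35.8% at least as many as PYCARD, 53.1% at least as many as NLRP2 and 70.4% at least as many as NLRX1. RefSeq gives NLRP2 another window that starts 1090 bases further on and matches the one printed at 297 of 300 positions. Methylation was not measured here, so these counts describe the sequence alone. The windows for NLRP3, NLRP12, NLRP7 and NOD2 held 5 to 6, and CASP1 and NLRP1 had no window in the table.

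NLRP2 is an NLR of the pyrin-domain group that is active in oocytes and early embryos and has been described as a brake on NF-kappaB. The gene lies on chromosome 19 at 54965284 to 55001138 (GRCh38.p14), beside its close relative NLRP7. It read 3.36, 3.39 and 3.54 in treated KA and 3.59, 3.36 and 3.45 in untreated KA, against 6.10, 6.03 and 6.12 in treated KS and 6.71, 6.68 and 6.25 in untreated KS. All 6 KA arrays lay far below all 6 KS arrays, and the KA means of 3.43 and 3.47 were little above the background level of 3.39. Untreated KA differed from untreated KS by -3.08 ± 0.11 (log2 difference ± SE), an 8.47-fold lower level, and treated KA from treated KS by -2.65 ± 0.11, a 6.30-fold lower level. Both differences are descriptions without a test, since NLRP2 was picked for being lower in KA. Because the KA values lie near background, the folds may understate the difference.

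**Figure D1:**
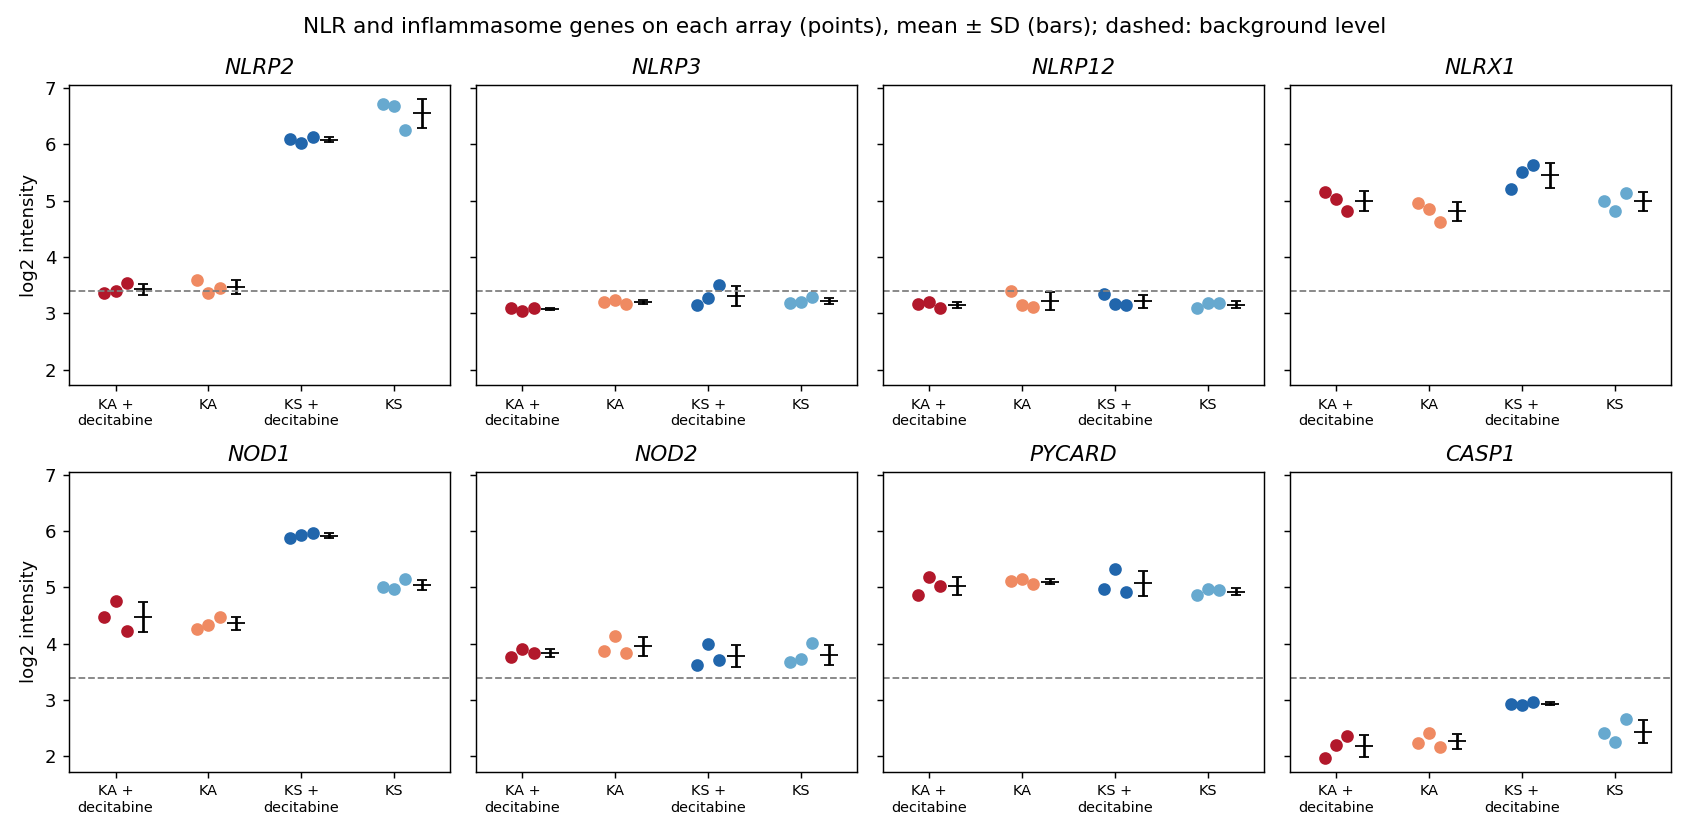
Log2 intensity (vertical axis) of the 8 measured genes on each of the 12 arrays, by group, with the mean and SD beside the points and the background level of 3.39 as a dashed line. NLRP2 lies near the dashed line on the 6 KA arrays and between 6.03 and 6.71 on the 6 KS arrays, NOD1 is highest in treated KS, and NLRP3, NLRP12 and CASP1 have all group means below the line.

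With decitabine, NLRP2 stayed near background in KA and was lower in KS. In KA it averaged 3.43 ± 0.10 with decitabine and 3.47 ± 0.12 without (SD, n = 3 each), a difference of -0.04 ± 0.11 that was not called (adjusted p = 0.859). A gene is called here at a limma adjusted p under 0.05 over all 18417 genes. In KS it averaged 6.08 ± 0.05 with decitabine and 6.55 ± 0.26 without (SD, n = 3 each), a fall of 1.38-fold (-0.47 ± 0.11, adjusted p = 0.00688). Every treated KS array lay below every untreated KS array, and the closest untreated one was replicate 3. Without that array the difference was -0.62 (adjusted p = 0.000198), and over all alternatives its adjusted p lay between 0.000198 and 0.0369. The responses of the lines differed by 0.43 ± 0.16, which was not called (adjusted p = 0.137), and by 0.58 without untreated KS replicate 3, which passed (adjusted p = 0.0105; 0.0105 to 0.286 over all alternatives). These tests use the untreated arrays that also showed NLRP2 low in KA. Choosing NLRP2 for that gap favours high values in untreated KS, and with them an apparent fall in KS. It likewise favours a difference of the responses in the direction seen, so neither p-value is taken as support. A level near background also leaves little room for a fall in KA.

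None of the genes measured on either side of NLRP2 was as much lower in KA, though many read too low to show such a fall. NLRP7, which lies beside NLRP2, is missing from this comparison because it was not measured. Among the 20 nearest measured genes, 10 on each side, the difference between untreated KA and untreated KS ran from -0.89 to 1.22 with a median of 0.07, against -3.08 for NLRP2. On one side NCR1, a natural killer cell receptor, averaged 5.00 in untreated KA and 5.47 in untreated KS. The highest untreated KS mean on that side was 5.91 (CDC42EP5). No gene there could therefore read 3.08 lower in KA and stay above the background level of 3.39. The same holds for some genes on the other side, such as EPS8L1 at 4.85 in untreated KS. On the other side GP6, the platelet collagen receptor, averaged 8.31 in untreated KA and 7.09 in untreated KS, the opposite direction. Between the treated lines, 5 of the 20 were higher in KA and 1 was lower, among them GP6 (8.25 in treated KA, 6.54 in treated KS, 1.71 ± 0.10, adjusted p = 5.52e-08). Over all genes 27% were called in that comparison. The LILR and KIR genes in this stretch, such as LILRA1 and KIR3DX1, have near copies, so which of them was read is uncertain.

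**Figure D2:**
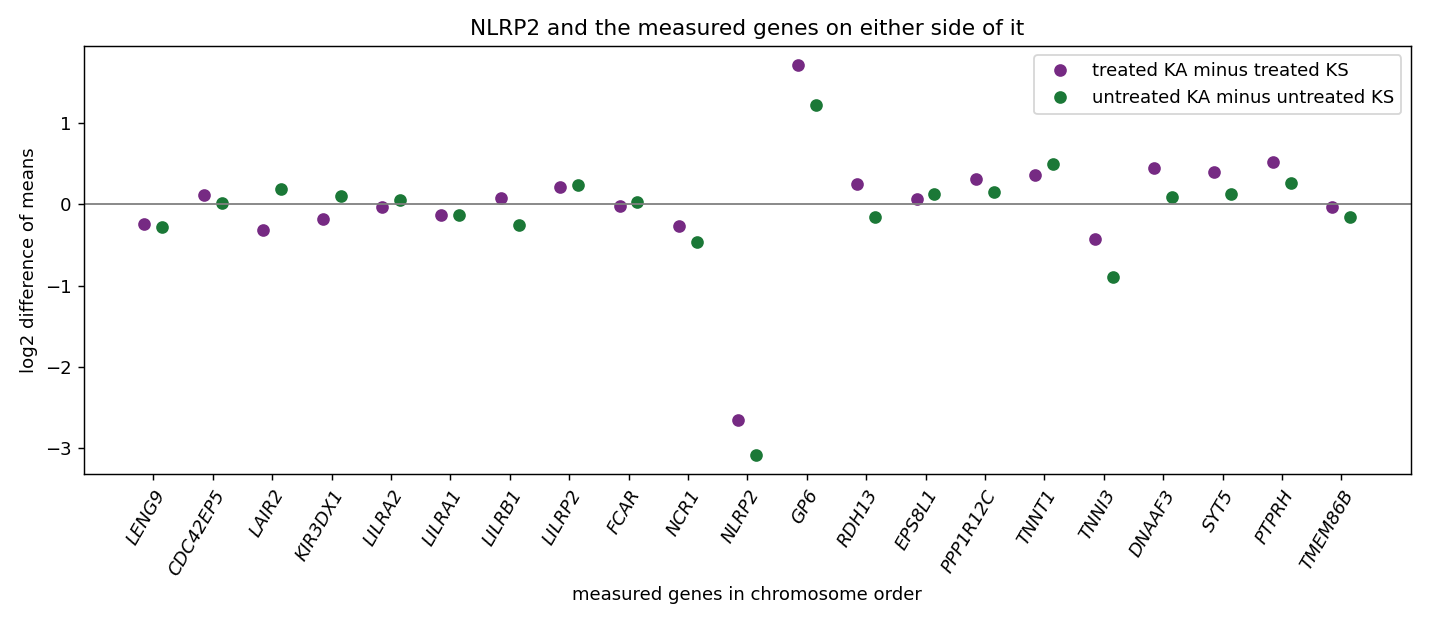
Log2 difference of group means (vertical axis) for NLRP2 and the 10 measured genes on each side of it in chromosome order, treated KA minus treated KS and untreated KA minus untreated KS. NLRP2 stands at -2.65 and -3.08, while its neighbours lie between -0.89 and 1.71.

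Genes whose values most resembled those of NLRP2 over the 12 arrays were FAM171A1 (Pearson r = 0.993), DACH1, a transcriptional cofactor (0.992), RHOH, a GTPase of blood cells (0.992), PRKCH, a protein kinase C (0.991), and AMOTL1, a junction protein (0.989). They were the top 5 of 1245 genes whose group means span at least 1, and r over 12 arrays that fall into 4 groups mostly reflects the gap between the lines. DACH1 averaged 4.11 in treated KA and 4.37 in untreated KA, against 6.09 in treated KS and 6.55 in untreated KS. RHOH averaged 4.15 in treated KA and 4.04 in untreated KA, against 5.93 in treated KS and 6.43 in untreated KS. With decitabine in KS the differences of the 5 genes were -0.13 for FAM171A1, -0.45 for DACH1, -0.50 for RHOH, -0.14 for PRKCH and -0.22 for AMOTL1. These are descriptions without a test, since the genes were picked for their likeness to NLRP2 over the same arrays.

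NOD1, the intracellular sensor of a peptidoglycan fragment found mainly in Gram-negative bacteria, showed the largest response to decitabine of the 8 genes, and only in KS was it called. It read 5.87, 5.92 and 5.96 in treated KS and 5.01, 4.97 and 5.14 in untreated KS. It read 4.47, 4.76 and 4.22 in treated KA and 4.26, 4.34 and 4.48 in untreated KA. The KS groups did not overlap, whereas the KA groups did. NOD1 was 1.83-fold higher with decitabine in KS (0.87 ± 0.11, adjusted p = 8.40e-05), and in KA the difference was 0.12 ± 0.11 (adjusted p = 0.524). The response was smaller in KA than in KS by 0.75 on the log2 scale (-0.75 ± 0.16, adjusted p = 0.0173), and this stayed called under every alternative tried (adjusted p = 0.00763 to 0.0473). Between the treated lines NOD1 was 2.70-fold lower in KA (-1.43 ± 0.11, adjusted p = 8.46e-07). Between the untreated lines it averaged 4.36 in KA and 5.04 in KS, a difference of -0.68 ± 0.11 given as a description.

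NLRX1 is the NLR protein of mitochondria and has been linked to the damping of antiviral signalling through MAVS. It read 5.20, 5.51 and 5.63 in treated KS and 5.00, 4.82 and 5.14 in untreated KS. The groups did not overlap, and the lowest treated and highest untreated arrays lay close together. NLRX1 was 1.38-fold higher with decitabine in KS (0.46 ± 0.13, adjusted p = 0.0178). The call was lost without treated KS replicate 2 (adjusted p = 0.0595), treated KS replicate 3 (0.0830) or untreated KS replicate 2 (0.0785), within a range of 0.00387 to 0.0830 over all alternatives. In KA it read 5.16, 5.02 and 4.81 with decitabine and 4.96, 4.85 and 4.62 without, which overlap (0.19 ± 0.13, adjusted p = 0.389). The difference of the responses was not called (-0.27 ± 0.19, adjusted p = 0.428). Treated KA lay below treated KS (-0.45 ± 0.13, adjusted p = 0.0220), a call lost without treated KA replicate 3 (0.10) or treated KS replicate 2 (0.0694) or 3 (0.0991), within 0.00593 to 0.10 over all alternatives.

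**Figure D3:**
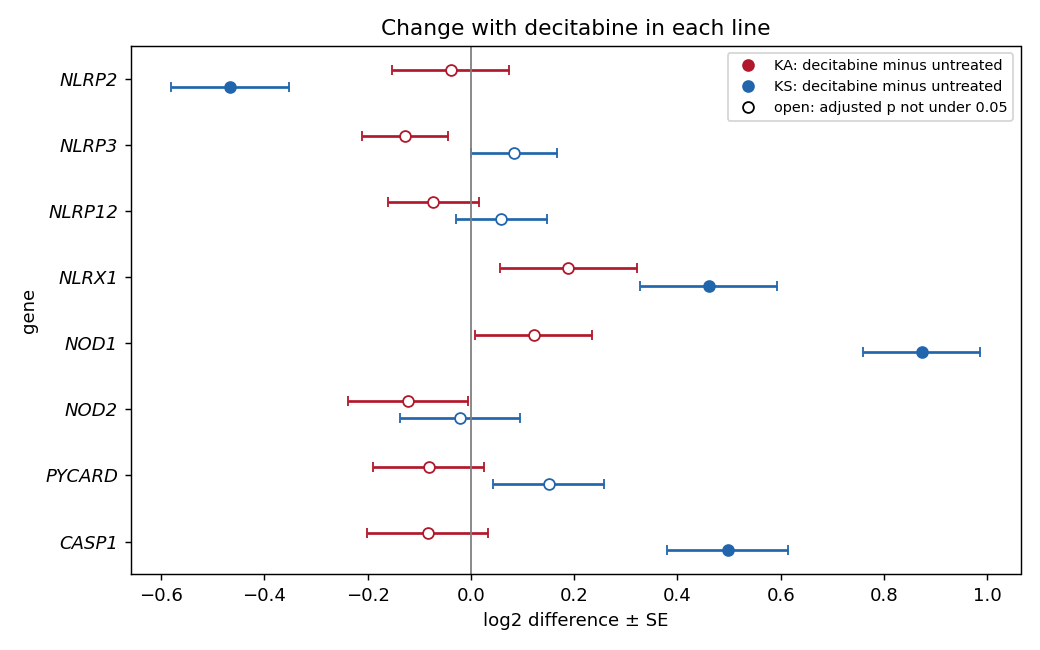
Log2 difference with decitabine (horizontal axis, ± SE) for the 8 genes in KA and in KS; filled points passed the adjusted p of 0.05. In KS, NLRX1, NOD1 and CASP1 lie to the right of 0 and NLRP2 to the left with filled points, while the KA points are all open and lie between -0.13 and 0.19.

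CASP1, the protease that inflammasomes activate, moved in KS but at a level not shown to exceed background. It read 2.93, 2.92 and 2.97 in treated KS and 2.42, 2.25 and 2.66 in untreated KS, and 1.97, 2.21 and 2.37 in treated KA and 2.23, 2.42 and 2.16 in untreated KA. Every treated KS array lay above all the others, yet below 3.39. The test called it higher with decitabine in KS (0.50 ± 0.12, adjusted p = 0.00554) and lower in treated KA than in treated KS (-0.75 ± 0.12, adjusted p = 0.000319). In KA the difference was -0.08 ± 0.12 (adjusted p = 0.689). The difference of the responses was not called (-0.58 ± 0.17, adjusted p = 0.0544), and it passed when untreated KS replicate 3 was left out (-0.69, adjusted p = 0.0167), or treated KA replicate 3 was (-0.67, adjusted p = 0.0459; 0.0115 to 0.129 over all alternatives). No fold is given for CASP1, because both groups lie under the background level. CARD16, an inhibitor that is a near copy of the CASP1 recruitment domain, averaged 3.64 in treated KS and 3.26 in untreated KS (0.38 ± 0.13, adjusted p = 0.0363). The untreated mean of CARD16 was not shown to exceed background. Given this likeness, which of CASP1 and CARD16 was read is uncertain.

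PYCARD, which encodes the adaptor ASC and was described early as a gene silenced by promoter methylation in tumours, was not called with decitabine in either line. It read 4.86, 5.19 and 5.02 in treated KA and 5.11, 5.14 and 5.06 in untreated KA, and 4.97, 5.33 and 4.92 in treated KS and 4.86, 4.97 and 4.95 in untreated KS. The groups overlapped within each line, with differences of -0.08 ± 0.11 in KA (adjusted p = 0.667) and 0.15 ± 0.11 in KS (adjusted p = 0.348). NOD2, a sensor of muramyl dipeptide, averaged 3.83 in treated KA and 3.95 in untreated KA (-0.12 ± 0.12, adjusted p = 0.533). In KS it averaged 3.78 with decitabine and 3.80 without (-0.02 ± 0.12, adjusted p = 0.928). Neither gene was called between the treated lines, where the differences were -0.06 for PYCARD and 0.05 for NOD2.

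NLRP3, the sensor of the best studied inflammasome, and NLRP12, a pyrin-domain NLR of myeloid cells, were not shown to exceed background in any group. Their group means lay between 3.08 and 3.31 for NLRP3 and between 3.15 and 3.22 for NLRP12. Neither was called in any of the tested comparisons. For NLRP3 the treated lines came closest (-0.23 ± 0.08, adjusted p = 0.0563), and without treated KS replicate 1 the difference was -0.31 (adjusted p = 0.0140; down to 0.0125 among all alternatives).

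Counted together, 0 of the 8 genes passed the test with decitabine in KA and 4 in KS. In KA limma called 0, also 0 at an unadjusted p under 0.05, where 14.6% of all genes were called (9.66% higher and 4.96% lower), and the median difference was -0.08 against -0.02 over all genes. In KS 3 were higher and 1 lower, where 30.3% of all genes were called (14.6% higher and 15.7% lower), and the median was 0.12 against -0.01 over all genes. The 3 higher were NLRX1, NOD1 and CASP1, and CASP1 was not shown to exceed background in any group. The 1 lower was NLRP2, whose test uses the untreated arrays that had a part in its choice, so its call adds nothing to the count. The KS count was 3 higher and 1 lower also without untreated KS replicate 3. Between the treated lines 3 of the 7 genes other than NLRP2 were lower in KA and none was higher, where 27% of all genes were called (15.1% higher and 11.9% lower), and the median was -0.23 against -0.00 over all genes. These 3 were again NLRX1, NOD1 and CASP1. Between the untreated lines 25.7% of all genes were called (11.6% higher and 14.1% lower), and the arrays of KA and KS did not overlap for NLRP2, NOD1 and PYCARD, nor for 38.4% of all genes. Nothing is read from that count, since this comparison helped to choose the genes. In the difference of the responses 1 of 8 was called, where 6.74% of all genes were (4.6% higher and 2.14% lower), and 3 of 8 without untreated KS replicate 3, where 11.1% of all genes were. The 1 was NOD1, and the added calls were CASP1 and NLRP2, under the same limits. Only 5 of the 8 genes (NLRP2, NLRX1, NOD1, NOD2 and PYCARD) had a mean over all arrays above background.

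Some markers of monocytes, the cells in which inflammasomes are best known, moved in KS as well. Of 11 measured monocyte and macrophage markers, 5 were higher with decitabine in KS (LYZ, CD68, FCGR3A, ITGAM and S100A8) and none lower. In KA 1 was higher (LYZ, which averaged 8.98 in treated KA and 7.21 in untreated KA). Over all genes 14.6% were called higher in KS and 9.66% in KA. Of the 5, FCGR3A was not shown to exceed background in either KS group. S100A8 was not in untreated KS, where it averaged 3.17. Their mean level ranged over arrays from 5.04 to 5.14 in treated KS and from 4.51 to 4.88 in untreated KS, and from 4.81 to 4.83 in treated KA and from 4.59 to 4.68 in untreated KA. Between the treated lines 1 was higher (CD68) and 3 were lower in KA (LYZ, ITGAM and S100A8), where 27% of all genes were called. Of the 8 erythroid markers, 5 were also higher with decitabine in KS and none in KA. In the difference of the responses only 1 monocyte marker (S100A8) and 1 erythroid marker (HBZ) were called, where 6.74% of all genes were. For most of these markers the responses of the lines were therefore not shown to differ. Without untreated KS replicate 3, the monocyte markers called with decitabine were the same 5 in KS, and 2 in KA. Of the erythroid markers, TFRC was then called lower in KS, beside the same 5 higher. The difference of the responses was then called for LYZ, S100A8 and HBZ, where 11.1% of all genes were called. LYZ averaged 11.01 in treated KS and 8.40 in untreated KS, 6.10-fold higher with decitabine, and 7.82 in untreated KS without replicate 3, 9.15-fold higher. CD14 and CSF1R, which define monocytes, stayed between 4.20 and 4.49 in every group, and FCGR3A and VCAN were not shown to exceed background in any. The part of these markers in the results on NOD1, NLRX1 and CASP1 was not tested. In arrays of bulk RNA, fewer expressing cells and less RNA per cell cannot be told apart.

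The pathway beyond these genes was read from 7 lists of 86 genes, 82 of them measured. With decitabine in KA 14 were higher and 7 lower, where 14.6% of all genes were called. In KS 11 were higher and 11 lower, where 30.3% of all genes were. Between the treated lines 15 were higher and 12 lower in KA, where 27% of all genes were. The median difference was 0.02, 0.01 and 0.01 in these comparisons, against -0.02, -0.01 and -0.00 over all genes. In the difference of the responses 7 were higher and 1 lower, where 6.74% of all genes were called. The lists are described by these counts, and none was tested as a list.

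Of 14 other NLR genes measured, 1 was lower with decitabine in KA, where 14.6% of all genes were called (NLRP9, -0.50 ± 0.15, adjusted p = 0.0489, treated mean not shown to exceed background, named after its value was seen). In KS limma called 0, also 0 at an unadjusted p under 0.05, where 30.3% of all genes were called. Between the treated lines 1 was higher and 1 lower in KA, where 27% of all genes were called. NLRP14, a germ cell NLR, averaged 3.81 in treated KA and 2.73 in treated KS, the second not shown to exceed background (1.08 ± 0.16, adjusted p = 0.000173). NAIP, which recognises bacterial flagellin and secretion needles, averaged 5.92 in treated KA and 6.63 in treated KS (-0.71 ± 0.11, adjusted p = 0.000230, named after its value was seen).

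Among 11 other sensors and pyrin-domain proteins, 3 were higher with decitabine in KA, where 14.6% of all genes were called. In KS 1 was higher and 1 lower, where 30.3% of all genes were called. IFI16, a nuclear DNA sensor, averaged 4.82 in treated KA and 3.56 in untreated KA, without overlap, and 3.76 in treated KS and 3.43 in untreated KS. It was 2.40-fold higher in KA (1.26 ± 0.17, adjusted p = 0.000510) and not called in KS (0.33 ± 0.17, adjusted p = 0.161). The responses differed by 0.93 ± 0.23 (adjusted p = 0.0335). CARD8, an inflammasome sensor held in check by dipeptidyl peptidases, averaged 6.79 in treated KA and 6.13 in untreated KA, against 7.69 in treated KS and 7.64 in untreated KS. Its responses differed by 0.61 ± 0.11 (adjusted p = 0.00817). CARD16 was lower in treated KA than in treated KS (-0.99 ± 0.13, adjusted p = 6.60e-05), with treated KA at 2.65 not shown to exceed background.

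Of 8 measured caspases and cell death effectors, 2 were higher with decitabine in KA, where 14.6% of all genes were called. In KS 3 were higher, where 30.3% of all genes were called, and none was lower in either line. GSDMB, a pore-forming gasdermin, read 4.94, 4.87 and 4.97 in treated KA and 3.97, 3.77 and 4.18 in untreated KA. In KS it read 4.79, 4.79 and 4.98 with decitabine and 3.99, 3.91 and 4.04 without. It was higher by 0.95 ± 0.10 in KA (adjusted p = 0.000111) and by 0.87 ± 0.10 in KS (adjusted p = 2.99e-05). CASP4, the caspase that senses lipopolysaccharide, averaged 3.51 in treated KA and 3.36 in untreated KA, against 5.81 in treated KS and 5.14 in untreated KS. It was higher with decitabine in KS (0.67 ± 0.15, adjusted p = 0.00430) and 4.94-fold lower in treated KA than in treated KS (-2.30 ± 0.15, adjusted p = 1.58e-07). For CASP4 the difference of the responses was not called (-0.52 ± 0.21, adjusted p = 0.169). Its untreated KA mean lay under the level of 3.39, and its treated KA mean lay little above that level. The fold between the treated lines may therefore understate the gap. GSDMD, the main pore former downstream of CASP1, was named after its values were seen: it was called in no comparison, with differences of -0.14 in KA and -0.01 in KS.

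Of 14 cytokines and receptors of the interleukin-1 family, 4 were higher and 1 lower with decitabine in KA, where 14.6% of all genes were called. In KS 3 were higher, where 30.3% of all genes were called. IL18, a substrate of CASP1, read 3.67, 3.59 and 4.25 in treated KA and 2.61, 2.93 and 3.07 in untreated KA, and 6.20, 6.25 and 6.11 in treated KS and 5.13, 4.89 and 5.16 in untreated KS. It was higher by 1.13 ± 0.16 in KS (adjusted p = 0.000155) and by 0.97 ± 0.16 in KA (adjusted p = 0.00178), where the untreated mean was not shown to exceed background. Treated KA remained below treated KS (-2.35 ± 0.16, adjusted p = 2.03e-07). IL1A, the interleukin-1 alpha gene, averaged 4.57 in treated KA and 3.68 in untreated KA (0.89 ± 0.15, adjusted p = 0.00196), and was not shown to exceed background in KS. IL1B, the other substrate, was named after its values were seen: its group means of 2.80 to 3.07 were not shown to exceed background. The receptor IL1R1 averaged 5.16 in treated KA and 7.04 in treated KS (-1.88 ± 0.09, adjusted p = 7.58e-09). Its co-receptor IL1RAP lay the other way, at 6.45 in treated KA and 3.96 in treated KS (2.49 ± 0.12, adjusted p = 7.58e-09).

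Of 12 inflammasome regulators, 3 were higher and 3 lower with decitabine in KA, where 14.6% of all genes were called. In KS 2 were higher and 3 lower, where 30.3% of all genes were called. TXNIP, a thioredoxin-binding protein reported to bind NLRP3, averaged 8.10 in treated KA and 8.98 in untreated KA, and 11.39 in treated KS and 11.25 in untreated KS. It fell 1.84-fold in KA (-0.88 ± 0.06, adjusted p = 1.76e-05), was not called in KS (0.14 ± 0.06, adjusted p = 0.125), and was 9.80-fold lower in treated KA than in treated KS (-3.29 ± 0.06, adjusted p = 1.70e-12). The responses differed by -1.02 ± 0.09 (adjusted p = 0.000821). PANX1, a membrane channel for ATP, averaged 6.83 in treated KS and 7.50 in untreated KS (-0.66 ± 0.09, adjusted p = 0.000108), against 6.73 in treated KA and 6.71 in untreated KA. DPP9, a peptidase that restrains NLRP1 and CARD8, averaged 7.05 in treated KS and 7.60 in untreated KS, against 7.10 in treated KA and 7.05 in untreated KA. For both, the difference of the responses was called (PANX1 0.69 ± 0.13, adjusted p = 0.00979; DPP9 0.61 ± 0.11, adjusted p = 0.00909). BRCC3, a deubiquitinase that acts on NLRP3, fell by 0.74 ± 0.12 in KS (adjusted p = 0.000345), and CTSB, a lysosomal protease, was higher there by 0.79 ± 0.10 (adjusted p = 6.57e-05). Both were called in the same directions in KA, BRCC3 at -0.42 ± 0.12 (adjusted p = 0.0303) and CTSB at 0.44 ± 0.10 (adjusted p = 0.0113). The difference of the responses was called for neither (adjusted p = 0.263 for BRCC3 and 0.153 for CTSB).

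Of 17 measured genes of NOD1 and NOD2 signalling, 2 were higher and 1 lower with decitabine in KA, where 14.6% of all genes were called. In KS 2 were higher and 5 lower, where 30.3% of all genes were called. RIPK2, the kinase directly downstream of both receptors and named after its values were seen, averaged 7.67 in treated KS and 8.01 in untreated KS (-0.34 ± 0.10, adjusted p = 0.0163). In KA it averaged 8.42 with decitabine and 8.43 without, and treated KA lay above treated KS (0.74 ± 0.10, adjusted p = 6.63e-05), the opposite of NOD1. NFKB1, a subunit of NF-kappaB, fell by 0.57 ± 0.08 in KS (adjusted p = 0.000173), where CHUK, an IkappaB kinase, fell by 0.55 ± 0.12 (adjusted p = 0.00263). The response of NFKB1 differed between the lines by 0.62 ± 0.11 (adjusted p = 0.0101). TNFAIP3, the ubiquitin-editing inhibitor A20, was higher in both lines, by 0.74 ± 0.07 in KA (adjusted p = 5.45e-05) and by 0.73 ± 0.07 in KS (adjusted p = 1.03e-05). Of the 6 genes described as partners of NLRX1, 1 was lower in KA and 2 in KS, beside the same 14.6% and 30.3% of all genes. Among the partners, TUFM, a mitochondrial elongation factor named after its values were seen, fell by 0.33 in KA (adjusted p = 0.00855) and by 0.36 in KS (adjusted p = 0.00182).

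**Figure D4:**
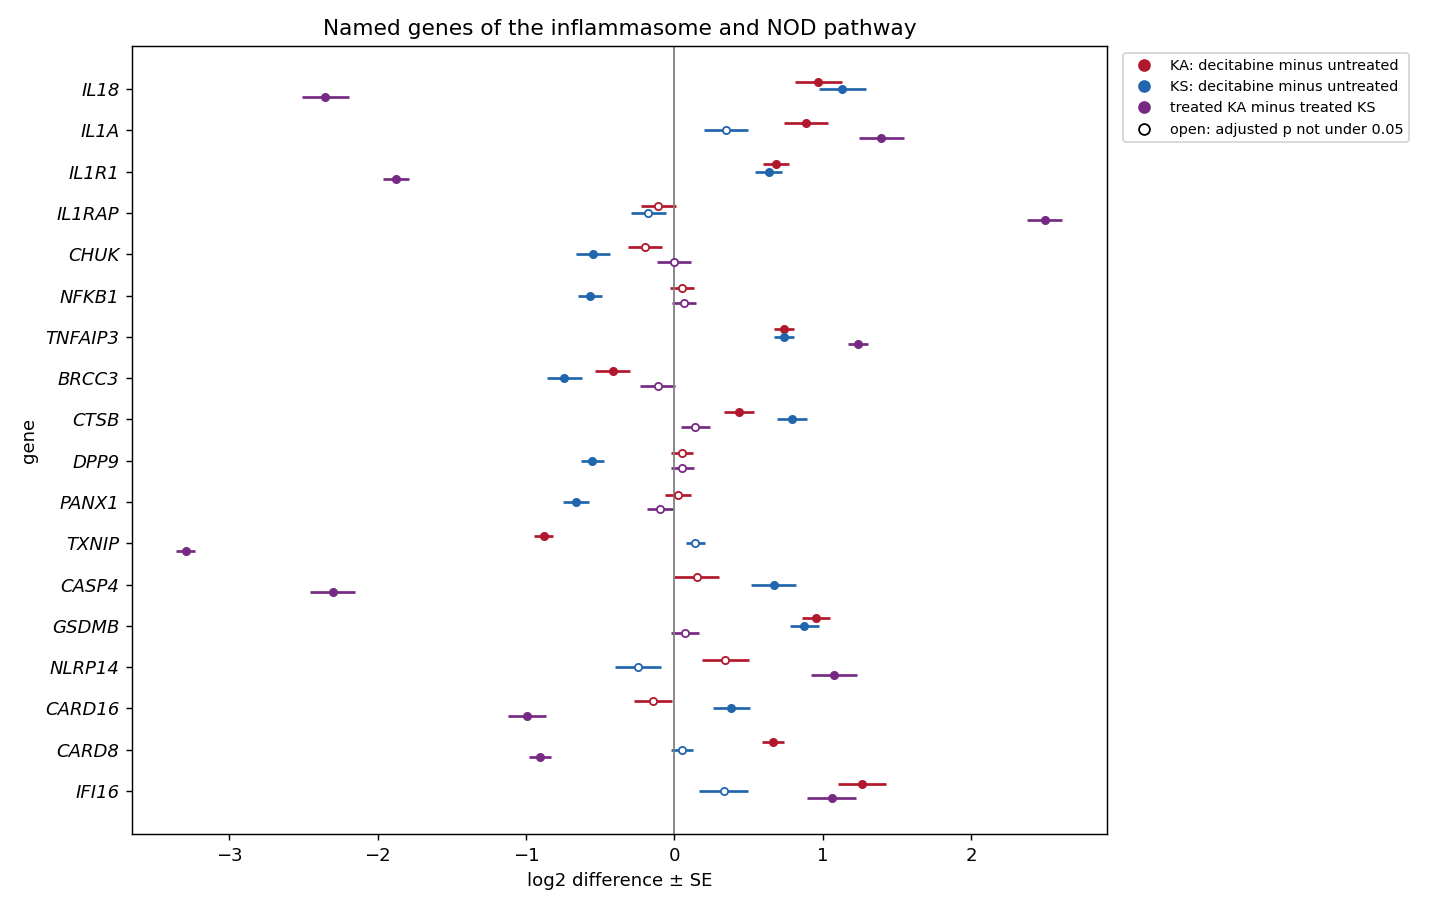
Log2 difference (horizontal axis, ± SE) for the named pathway genes, with decitabine in KA, with decitabine in KS, and for treated KA minus treated KS; filled points passed the adjusted p of 0.05. TXNIP, IL18, CASP4 and IL1R1 lie farthest left between the treated lines, at -3.29 to -1.88, and IL1RAP farthest right at 2.49, while GSDMB and TNFAIP3 lie right of 0 with decitabine in both lines.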

How the data were processed

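The deposited table holds log2 intensities, 1 column for each of 12 arrays, from biotin-labelled cRNA per the labels' protocols. The sources used here do not state how background, summarization and normalization were done, and no further scaling was applied. Of 33297 rows, 19460 carry 1 gene symbol in the platform annotation, 1754 several and 12083 none. The brightest row by its mean over all arrays stood for each of 18417 genes, with symbols updated by Entrez identifier through RefSeq (19429 rows matched). limma 3.58.1 in R 4.3.3 fitted group means over all arrays (8 residual and 4.71 prior degrees of freedom), with Benjamini-Hochberg adjustment over all genes. The fit was tried on simulated data with independent noise, for decitabine in each line and for the treated lines. Far fewer genes were changed there than were called here, and the difference of the responses was not simulated. The number of arrays limits the precision.

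The members and lists were chosen with earlier results of these data known. Named are the members, pathway genes called with a difference of at least 0.5 (at most 5 each way per comparison), the 10 measured genes on each side of NLRP2 and the 5 most correlated with it; other names are marked. Same-numbered arrays of different groups deviated together at correlations of -0.26 to 0.19, above 0.1 in 2 of 18 pairs, so the numbers were not taken as pairs. Alternatives were median centring, quantile normalization, a filter on low values, the mean of a gene's rows, 2 groups alone, an intensity trend, array weights, a replicate block and each array left out. Leaving out untreated KS replicate 3 with treated KS replicate 1 was added after seeing the data. Figures were drawn with matplotlib 3.10.9.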

Additional observations from a re-analysis of the deposited data

Results flagged for a closer look

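The response of NOD1 to decitabine differed between the lines: KA minus KS was -0.75 on the log2 scale, from a test of the difference itself. NOD1 averaged 4.48 in treated KA and 4.36 in untreated KA, and 5.91 in treated KS and 5.04 in untreated KS. No other member passed that test in the fit over all arrays.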

How the results depend on the processing

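The numbers of members called with decitabine in KA (0 under every alternative), with decitabine in KS (3 to 4 with an array left out) and between the treated lines (2 to 4) stayed within 1.5 times the main count. In the difference of the responses 1 member was called. That became 2 with quantile normalization, 2 with an intensity trend, 3 with array weights, 1 to 3 with an array left out and 3 without untreated KS replicate 3 and treated KS replicate 1. The added calls were CASP1 and, where there were 3, NLRP2. With the replicate block the counts were 0, 4, 3 and 1, and it changed no other call on a member. The NLRP2 difference between the untreated lines ran from -3.23 to -3.00 with an array left out, and between the treated lines from -2.71 to -2.62. Of 631 values for members under alternatives, 596 kept direction and side of the threshold, 12 gained a call, 6 lost one and 17, uncalled throughout, changed sign. With the filter on low values NLRP3, NLRP12 and CASP1 were not tested. Over all genes, the calls for decitabine in KA numbered 2694, and 4417 with array weights. They numbered 1653 without treated KA replicate 3, 1706 without untreated KA replicate 1 and 1725 without untreated KA replicate 2. For the difference of the responses they numbered 1241, 778 with the replicate block, 1918 with an intensity trend, 2288 with array weights and 564 to 2049 with an array left out. The pathway genes called in KA numbered 21, and 13 without treated KA replicate 3. The causes were not tested. Signal near background limits what can be said of NLRP3, NLRP12 and CASP1, and of NLRP2 in KA.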

Other observations

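Of the 20 neighbours of NLRP2, 2 were higher and 1 lower with decitabine in KA, where 14.6% of all genes were called, and 3 were higher and 3 lower in KS, where 30.3% of all genes were. These shares are near those of all genes. TNNI3, cardiac troponin I, averaged 9.10 in treated KA and 8.04 in untreated KA (1.06 ± 0.10, adjusted p = 5.45e-05), and 9.52 in treated KS and 8.93 in untreated KS (0.59 ± 0.10, adjusted p = 0.000460). DNAAF3, an assembly factor of ciliary dynein arms, averaged 6.93 in treated KA and 7.47 in untreated KA (-0.54 ± 0.08, adjusted p = 0.00102), and 6.48 in treated KS and 7.37 in untreated KS (-0.89 ± 0.08, adjusted p = 9.02e-06). PTPRH, a receptor tyrosine phosphatase, was higher by 0.54 ± 0.07 in KA (adjusted p = 0.000635) and by 0.28 ± 0.07 in KS (adjusted p = 0.0115). GP6 fell by 0.55 ± 0.10 in KS (adjusted p = 0.000970), and averaged 8.25 in treated KA and 8.31 in untreated KA.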
